A study of Mus musculus with 4 samples.

Results

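The genes described here carry symbols of molecular chaperone families. They were measured in libraries of sorted colonic CD4+ T cells, which also held RNA of epithelial and myeloid markers. They were chosen by symbol: every listed gene that starts with Hspa, Hspb, Hspd, Hspe, Hsph, Hsp90 or Dnaj, and the 8 subunits of the CCT chaperonin, with symbols marked as pseudogenes dropped. This gave 73 of 16555 listed genes, of which 42 act in the cytosol, 14 in the endoplasmic reticulum, 10 in mitochondria, 4 in the nucleus, and 3 were left unassigned. Of the 73 genes, 72 had a mean of at least 10 normalized counts and were tested. The other, Hspa12b, a distant HSP70 relative, was listed at 9.35 and 6.63 in fl/fl and at 12.5 and 11.5 in the dLck-Cre-labelled libraries.

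Both groups of libraries came from Rag1-/- mice, which lack T and B cells of their own and develop colitis after they receive CD4+CD25-CD45RBhi T cells. The donors carried floxed CK2α alleles in both groups (CK2αfl/fl, 2 libraries), and in the second group also the dLck-Cre transgene (CK2αfl/fldLck-Cre, 2 libraries), which places Cre recombinase under the distal Lck promoter and is active in mature T cells. Cells positive for CD45, CD3 and CD4 were sorted from the colon 6 weeks after transfer, and total RNA was sequenced. The labels give neither age nor strain and do not say whether the replicates were separate animals, so p-values reflect the spread of these libraries alone, part of which may be technical.

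Chaperones hold, fold or unfold other proteins. HSP70 proteins bind short hydrophobic stretches in cycles of ATP hydrolysis that J-domain proteins (the Dnaj genes) start and that exchange factors such as HSP110 end, HSP90 acts later on kinases and receptors, and the CCT ring encloses actin, tubulin and other clients. In stressed cells the factor HSF1 switches on the cytosolic set, whereas unfolded protein in the endoplasmic reticulum acts through ATF6, XBP1 and ATF4 on the reticulum's own set, headed by the HSP70 gene Hspa5 (BiP) and the HSP90 gene Hsp90b1 (GRP94). CK2 is tied to this machinery because it phosphorylates CDC37, the cochaperone that brings kinases to HSP90.

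The whole reads recovered from the deposited normalized counts came to between 16777017 and 22422971 per library, and the 2 libraries of a genotype differed beyond counting noise (chi-square per gene of 24.4 and 34.5). Csnk2a1, which encodes CK2α, was not lower in the dLck-Cre-labelled libraries, at 1534 and 1597 normalized counts in fl/fl and 2118 and 2031 in the others (log2 difference 0.41, SE 0.13, limma, adjusted p = 0.108), and Csnk2a2 (-0.09, adjusted p = 0.809) and Csnk2b (-0.35, adjusted p = 0.174), the genes of the other subunits, did not pass either, so all directions are given for the libraries by their label. In the dLck-Cre-labelled libraries, 22 T cell identity genes took 0.573% to 0.642% of the summed values against 0.823% to 0.839% in the fl/fl libraries, and 7 of the 22 fell. Colonic epithelial markers (26 of 26 listed, 21 higher) took 0.763% to 0.897% against 0.311% to 0.337%, and myeloid markers (28 of 28 listed, 19 higher) 0.613% to 0.746% against 0.221% to 0.367%. Of the B and plasma cell markers 5 were tested, and 3 of them rose. None of the listed markers of these 4 lists was at 0 in any library. In sorted bulk samples, fewer cells of a type and less RNA per cell cannot be told apart.

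Few chaperone genes passed the test between the genotypes. Small or specialised members rose in the dLck-Cre-labelled libraries: Hspb1, Hspa12a and Dnajc22. The cytosolic genes Hspa1a, Hspa1b, Hsph1 and Dnajb1 were instead highest in 1 of the fl/fl libraries, in which Hspb1 was lowest, and the summed level of the endoplasmic reticulum chaperones was similar in all 4 libraries. Of the 72 tested members, 3 rose and 0 fell (limma on log2 of the normalized count plus 1, Benjamini-Hochberg adjusted p under 0.05 over all genes), and 9 had an unadjusted p under 0.05. Over all 16490 genes tested 6.97% passed, 5.75% as higher and 1.22% as lower, so the share of called chaperones was not above that of all genes. edgeR called the same 3 members and no other, among 1133 calls over all genes, and DESeq2 called 5, among 1768.

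**Figure D1:**
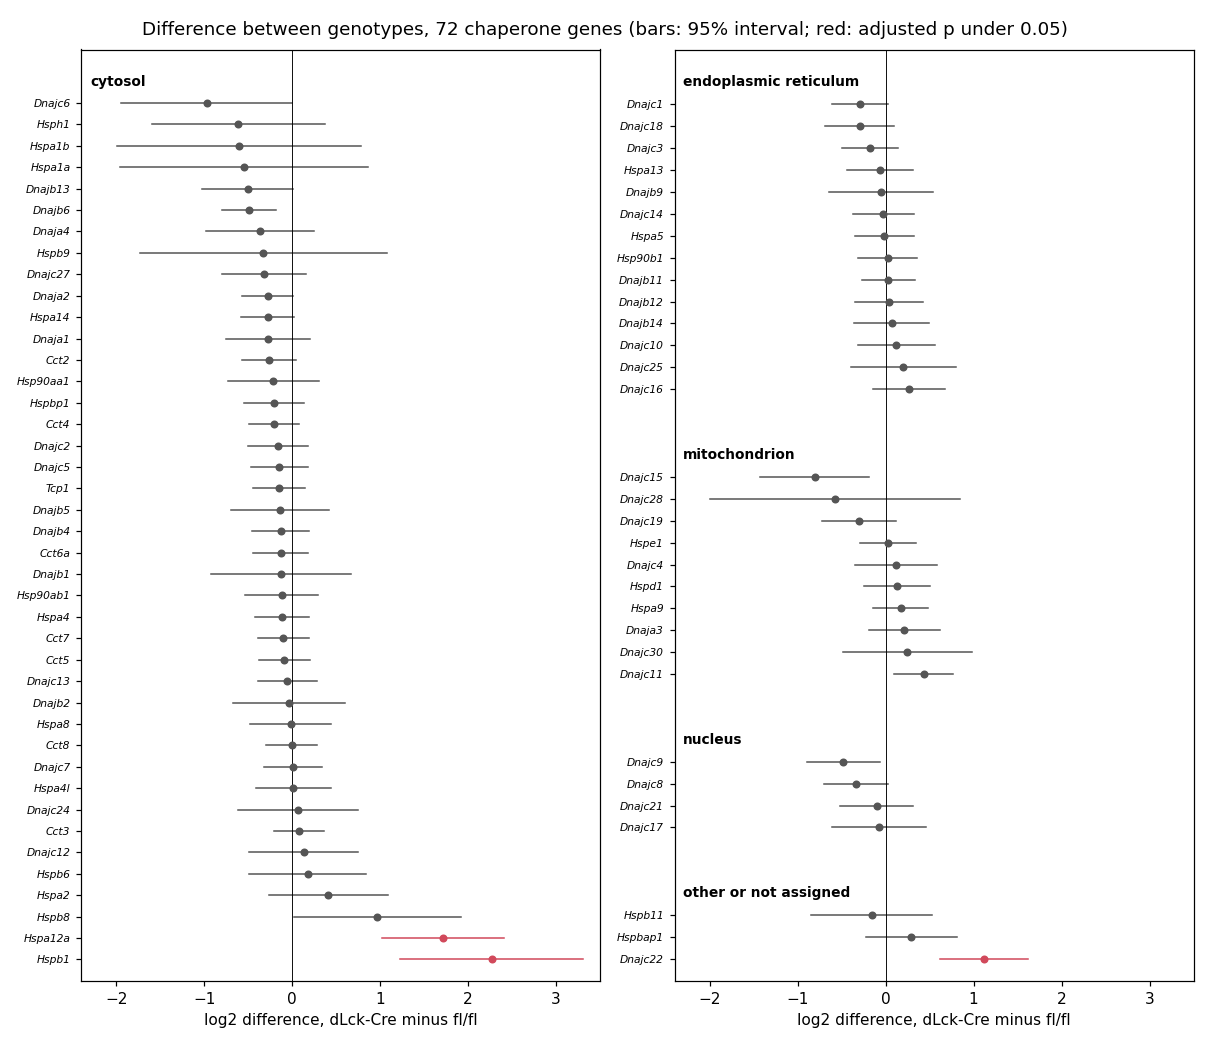
Log2 difference of each of 72 chaperone genes, dLck-Cre-labelled libraries minus fl/fl, grouped by compartment, with bars for the 95% interval from limma (2 libraries a group) and red for an adjusted p under 0.05. Hspb1 (2.27), Hspa12a (1.72) and Dnajc22 (1.12) stand to the right of the rest, and the widest bars near 0 belong to Hspa1a and Hspa1b among abundant genes.

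The heat-inducible HSP70 pair had the highest level in fl/fl replicate 2. Hspa1a (chr17:34969190-34972156, minus strand, GRCm38) was at 6380 and 30748 normalized counts in fl/fl and at 10175 and 9015 in the dLck-Cre-labelled libraries. Hspa1b (chr17:34956436-34959238, minus strand) was at 10529 and 49419 against 15943 and 14166. For both genes 1 fl/fl library lay below and the other above both dLck-Cre-labelled libraries, so the groups overlap. The log2 difference between genotypes was -0.55 (SE 0.60, 95% interval -1.95 to 0.86, limma, adjusted p = 0.634) for Hspa1a and -0.60 (SE 0.59, adjusted p = 0.59) for Hspa1b. The step from fl/fl replicate 1 to replicate 2 was 4.82-fold for Hspa1a and 4.69-fold for Hspa1b, which ranked 57 and 59 among the 16490 genes tested, and the median size of that step over all genes was 0.22 on the log2 scale.

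The pair is encoded by near-identical neighbouring genes, and how the authors' counting shared reads between them is not given in the sources used here, so the individual values are uncertain. The ratio of Hspa1b to Hspa1a was 1.65 and 1.61 in fl/fl and 1.57 in both dLck-Cre-labelled libraries, close to constant while the level itself moved more than 4-fold. Because the sharing of reads is unknown, this ratio cannot show whether the genes moved together. Their promoters are near copies as well: of the 250 bases upstream of the start, 247 (98.8%) are identical in RefSeq (GRCm38.p6). The last 140 bases before each start are shown to compare the promoters, with a pair of inverted heat shock units (GAANNTTC) in capitals. The stretches lie at chr17:34972157-34972296 and chr17:34959239-34959378, both on the minus strand.
Hspa1a: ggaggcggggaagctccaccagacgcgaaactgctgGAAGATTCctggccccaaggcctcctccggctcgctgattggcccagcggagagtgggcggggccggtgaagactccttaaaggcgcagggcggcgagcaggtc
Hspa1b: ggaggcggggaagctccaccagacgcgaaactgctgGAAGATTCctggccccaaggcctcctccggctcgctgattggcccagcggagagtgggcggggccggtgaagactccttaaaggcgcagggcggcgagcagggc

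The partners of the heat-inducible HSP70 proteins were also highest in fl/fl replicate 2. Hsph1, the HSP110 exchange factor, was at 2995 and 8705 normalized counts in fl/fl and at 3070 and 3633 in the dLck-Cre-labelled libraries (log2 difference -0.61, SE 0.42, adjusted p = 0.425). Dnajb1, the class B J-domain partner of HSP70 (HSP40), was at 4718 and 10966 against 6266 and 6939 (log2 difference -0.13, SE 0.34, adjusted p = 0.863). Hsp90aa1, the inducible HSP90, was at 12357 and 19848 against 13037 and 13957 (log2 difference -0.22, adjusted p = 0.606), and Dnaja1, a class A J-domain partner, at 7746 and 11488 against 7084 and 8524 (log2 difference -0.28, adjusted p = 0.455). In each of these 4 genes fl/fl replicate 2 was the highest library and fl/fl replicate 1 was near or below the dLck-Cre-labelled libraries. Dnaja4, another J-domain gene, named after its values were seen, had 500 and 895 normalized counts against 524 and 514. The constitutive genes rose less between the fl/fl replicates, by 1.35-fold for both Hspa8 (HSC70; 46797 and 63245 against 50229 and 57402) and Hsp90ab1 (22330 and 30090 against 22863 and 24921), and by 1.13-fold for the HSP110 relative Hspa4 (4452 and 5021 against 4396 and 4333). These constitutive genes differed between genotypes by -0.02, -0.12 and -0.12 on the log2 scale (adjusted p between 0.645 and 0.967).

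**Figure D2:**
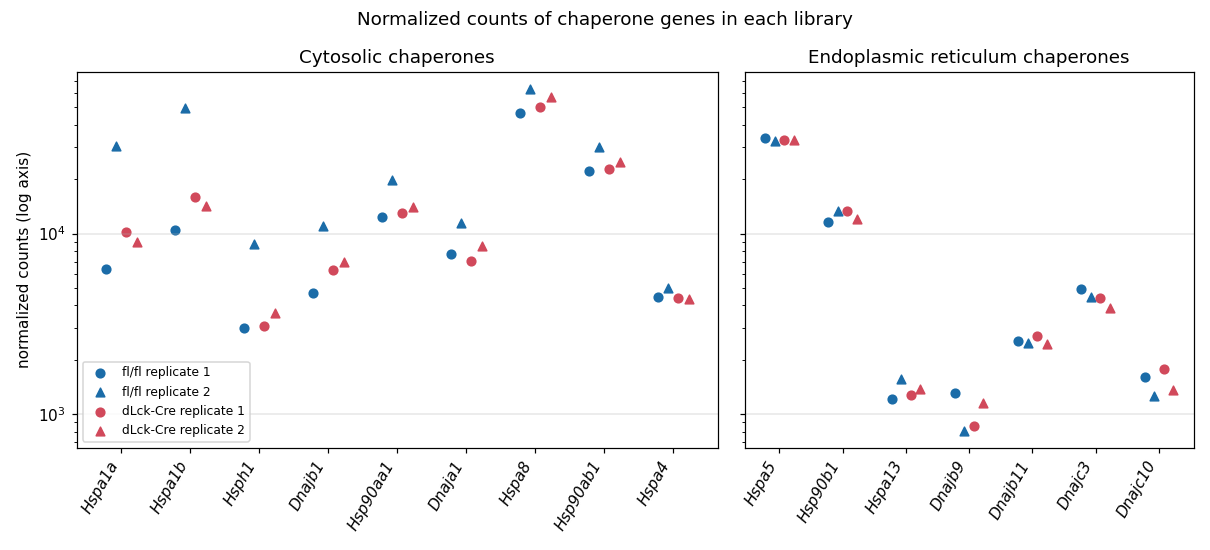
Normalized counts (log axis) of 9 cytosolic and 7 endoplasmic reticulum chaperone genes in each of the 4 libraries. Hspa1a, Hspa1b, Hsph1 and Dnajb1 have 1 point, fl/fl replicate 2, above the other libraries, while the 4 points of Hspa5 lie between 32419 and 33894.

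A single library therefore set the sign of the genotype difference for this set. Without fl/fl replicate 2 the log2 differences were 0.59 for Hspa1a (limma, adjusted p = 0.128), 0.51 for Hspa1b (adjusted p = 0.205), 0.16 for Hsph1 (adjusted p = 0.777) and 0.48 for Dnajb1 (adjusted p = 0.215), all on the other side of 0. Without fl/fl replicate 1 they were -1.68 for Hspa1a (adjusted p = 0.00202), -1.72 for Hspa1b (adjusted p = 0.00217) and -1.38 for Hsph1 (adjusted p = 0.00347), which passed as lower, and -0.73 for Dnajb1 (adjusted p = 0.0553). With 1 fl/fl library left, that library is assumed to vary like the other group. Of the 72 members, 9 were higher in fl/fl replicate 2 than in replicate 1 by more than 0.5 on the log2 scale. Over all genes these were 1862 of 16490, so the share of the 72 is near that of all genes. Of the 9, 8 were among the 41 tested cytosolic members and none among the 14 of the endoplasmic reticulum. In either direction 12 of the 41 and 1 of the 14 differed by more than 0.5, beside 14 of the 72 members and 3640 of all 16490 genes. The cytosolic ones that were lower were Dnajc6, Dnajc24, Hspb1 and Hspb9. Between the fl/fl replicates the T cell identity and epithelial shares were alike, and the myeloid share was 0.367% in replicate 1 and 0.221% in replicate 2. Its part in the result was not tested.

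**Figure D3:**
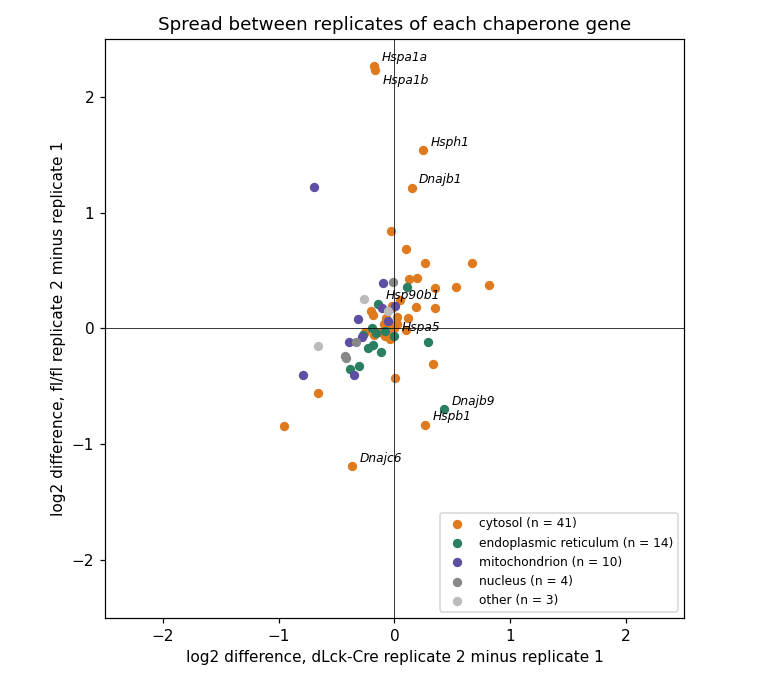
Each chaperone gene's log2 difference between the fl/fl replicates (vertical axis) against that between the dLck-Cre replicates (horizontal axis), replicate 2 minus replicate 1 in both, coloured by compartment. Hspa1a and Hspa1b lie at 2.27 and 2.23 on the vertical axis and near 0 on the horizontal axis, and the endoplasmic reticulum genes cluster around the origin, with Dnajb9 (-0.70 and 0.43) the farthest out.

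Heat shock factor and cochaperone genes gave no call. Hsf1, the heat shock factor gene, was at 535 and 573 normalized counts in fl/fl and at 458 and 617 in the dLck-Cre-labelled libraries (log2 difference -0.06, SE 0.19, adjusted p = 0.885). Of 30 cochaperone and heat shock factor genes tested, 0 passed (limma; 4 at an unadjusted p under 0.05, and 0 by edgeR and DESeq2), with a median log2 difference of -0.07 against -0.02 over all genes. The 4 with the lowest p were Cdc37l1, a relative of CDC37 (-0.50, adjusted p = 0.103), Bag4, an HSP70 exchange factor (-0.50, adjusted p = 0.16), Sgta, which captures tail-anchored proteins (0.39, adjusted p = 0.166), and Serpinh1, the collagen chaperone (1.91, adjusted p = 0.18). Serpinh1 had 128 and 17.7 normalized counts in fl/fl against 175 and 192, with fl/fl replicate 2 far below the other 3 libraries. Cdc37, taken for its link to CK2 after its values were seen, was at 3032 and 3006 against 2727 and 2696, without overlap and without passing (log2 difference -0.15, SE 0.12, adjusted p = 0.496). Ahsa2, an HSP90 activator also named after its values were seen, rose from 583 in fl/fl replicate 1 to 1046 in replicate 2, against 595 and 741 in the dLck-Cre-labelled libraries. It was the 1 gene of these 30 that rose by more than 0.5 on the log2 scale between the fl/fl replicates. Of the 30, 19 were higher in fl/fl replicate 2, with a median log2 step of 0.10 against 0.0063 over all genes.

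A full heat shock element stood before few of the chaperone genes. Of the 73 members, 60 matched a RefSeq promoter entry, and the 250 bases upstream were searched on both strands. The motif of 3 alternating units (GAANNTTCNNGAA or TTCNNGAANNTTC) stood before 3 of the 60 members (5.0%), Dnajb6, Hspd1 and Hspe1, against 0.457% of the 10931 genes of the table with an entry and 0.514% of all 27025 genes with one. The mitochondrial pair Hspd1 (HSP60) and Hspe1 (HSP10), whose products form the chaperonin of the matrix, is transcribed from both sides of a shared promoter, so their match is 1 stretch, chr1:55088054-55088081, read on the plus strand for Hspe1 and on the minus strand for Hspd1. The Dnajb6 match lies at chr5:29735847-29735869 on the plus strand. The matches are in capitals, and in the shared stretch 2 overlapping matches make 4 alternating units. Positions before a start are counted from RefSeq starts, and the Dnajb6 and Hspd1 stretches lie inside the genes as GENCODE vM21 bounds them.
Hspe1: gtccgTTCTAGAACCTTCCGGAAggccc
Hspd1: gggccTTCCGGAAGGTTCTAGAAcggac
Dnajb6: tccgaGAATCTTCCGGAAcgcta

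A motif of 2 units (GAANNTTC or TTCNNGAA), contained in the longer one and searched after the data were seen, stood before 15 of the 60 members, among them Hspa1a, Hspa1b, Hsph1, Dnaja1, Dnaja4 and Hspb1. It was present in 12 of 35 cytosolic members with an entry (34.3%) and in 1 of 12 endoplasmic reticulum members (8.33%), against 12.25% of the genes of the table and 14.5% of all genes with an entry. The genes named here were picked with their values known. Hspb1 was lower in fl/fl replicate 2 than in replicate 1 (0.53-fold), unlike the others named. Dnajb1, which rose in fl/fl replicate 2, had no match in this window. A link between the motif and the levels in that library was not tested. Such matches are letters in a sequence, not shown to be bound.

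No chaperone of the endoplasmic reticulum passed the test between the genotypes. Hspa5 (chr2:34771970-34777547, plus strand), which encodes BiP, was at 33894 and 32419 normalized counts in fl/fl and at 32842 and 32800 in the dLck-Cre-labelled libraries. The 4 libraries lie within a few percent of each other and the groups overlap, with a log2 difference of -0.01 (SE 0.14, 95% interval -0.35 to 0.32, limma, adjusted p = 0.966). Hsp90b1 (chr10:86690209-86705509, minus strand) was at 11576 and 13398 against 13292 and 12014, a log2 difference of 0.02 (SE 0.14, 95% interval -0.31 to 0.36, adjusted p = 0.951). Hspa13, a short HSP70 relative, was at 1219 and 1566 against 1272 and 1375 (-0.06). The intervals leave room for a difference in either direction, so a p above the threshold does not show equal levels.

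The J-domain partners of BiP gave no call either. Dnajb11 (ERdj3), which binds unfolded clients, was at 2553 and 2481 normalized counts against 2723 and 2432 (log2 difference 0.03), and Dnajc3 (p58IPK), a J-domain protein that restrains the kinase PERK, at 4929 and 4455 against 4417 and 3893 (log2 difference -0.18, without overlap, adjusted p = 0.482). Dnajc10 (ERdj5), a disulfide reductase, was at 1611 and 1263 against 1775 and 1357 (log2 difference 0.12). Dnajb9 (ERdj4), which restrains the stress sensor IRE1, varied most among replicates, at 1316 and 810 against 857 and 1156, so each group holds a high and a low library (log2 difference -0.05). Of the 14 genes, 0 passed (limma; 0 also at an unadjusted p under 0.05, and 0 by edgeR and DESeq2). Their log2 differences ran from -0.30 to 0.26 with a median of 0.0034, 7 above and 7 below 0, while the tested cytosolic members ran from -0.97 to 2.27 with a median of -0.13, 10 above and 31 below 0, and the median over all genes was -0.02. The cytosolic median was -0.0084 without fl/fl replicate 2.

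Of the endoplasmic reticulum genes, Hspa5, Hsp90b1 and Dnajc3 share a promoter element. The endoplasmic reticulum stress element (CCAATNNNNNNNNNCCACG, bound by ATF6 with NF-Y) stood before all of these, 3 of the 12 members of the compartment with a promoter entry (25.0%), against 0.183% of the genes of the table and 0.13% of all genes with an entry. The stretches lie at chr2:34772020-34772048 and chr14:118937822-118937850 on the plus strand and at chr10:86705528-86705661 on the minus strand, and the Hsp90b1 stretch holds 2 matches, in opposite directions. Capitals mark the element. The start is RefSeq's, and the Hspa5 stretch lies inside the gene as GENCODE vM21 bounds it. Atf6, the gene of a factor that reads the element, passed the test, with a call lost in several settings, and these 3 genes did not. Activity of the ATF6 protein was not measured, and a link between these results was not tested.
Hspa5: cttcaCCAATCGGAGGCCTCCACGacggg
Dnajc3: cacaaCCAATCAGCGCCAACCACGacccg
Hsp90b1: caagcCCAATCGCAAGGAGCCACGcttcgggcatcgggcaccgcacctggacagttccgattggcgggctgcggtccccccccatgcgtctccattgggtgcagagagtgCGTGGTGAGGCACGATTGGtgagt

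Atf6 was at 3390 and 3354 normalized counts in fl/fl and at 2142 in both dLck-Cre-labelled libraries, and so fell by 0.65 on the log2 scale (limma, SE 0.12, adjusted p = 0.0299). T cell identity genes had a median log2 difference of -0.53 in the same comparison, and after scaling to them Atf6 was at -0.15 (adjusted p = 0.378). The Atf6 call was also lost after quantile normalization (adjusted p = 0.0732), with limma without the trend (0.135), and without fl/fl replicate 1 (0.0827), fl/fl replicate 2 (0.0753) or dLck-Cre replicate 2 (0.0945), and kept with edgeR (0.034) and DESeq2 (0.00231). It was the 1 gene that passed, as lower, among 32 tested genes of endoplasmic reticulum folding and the unfolded protein response (median log2 difference -0.0048, against 1.22% of all genes called lower). The next by p were the oxidase gene Ero1l (-0.36, adjusted p = 0.164), the prolyl isomerase gene Ppib (-0.31, adjusted p = 0.238) and the stress factor gene Atf4 (0.39, adjusted p = 0.252). The shorter unfolded protein response element TGACGTGG stood before 1 chaperone gene, Dnajc25 (1.67% of 60 members, against 0.906% of the genes of the table).

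Summed over genes, the cytosolic set was highest in 1 library, and the endoplasmic reticulum set was similar in all. The 42 cytosolic genes summed to 179855 and 293459 normalized counts in fl/fl and to 190289 and 198566 in the dLck-Cre-labelled libraries. Without Hspa1a and Hspa1b, a step added after the data were seen, the sums were 162945 and 213292 against 164171 and 175385, so fl/fl replicate 2 was still the highest. Such sums follow the most abundant genes, such as Hspa8 in the cytosol and Hspa5 in the endoplasmic reticulum. Over the 41 tested cytosolic genes the median log2 step from fl/fl replicate 1 to replicate 2 was 0.096. It was -0.013 over the CCT genes and 0.0063 over all genes. The 14 endoplasmic reticulum genes summed to 62008 and 61085 against 61902 and 59324, and the 10 mitochondrial genes to 13989 and 15486 against 15807 and 14322. The ratio of the cytosolic to the endoplasmic reticulum sum was 2.90 and 4.80 in fl/fl and 3.07 and 3.35 in the dLck-Cre-labelled libraries, which again lie between the fl/fl values. With 2 libraries against 2 an exact permutation test cannot go below p = 0.333, so no such test was run on these sums.

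**Figure D4:**
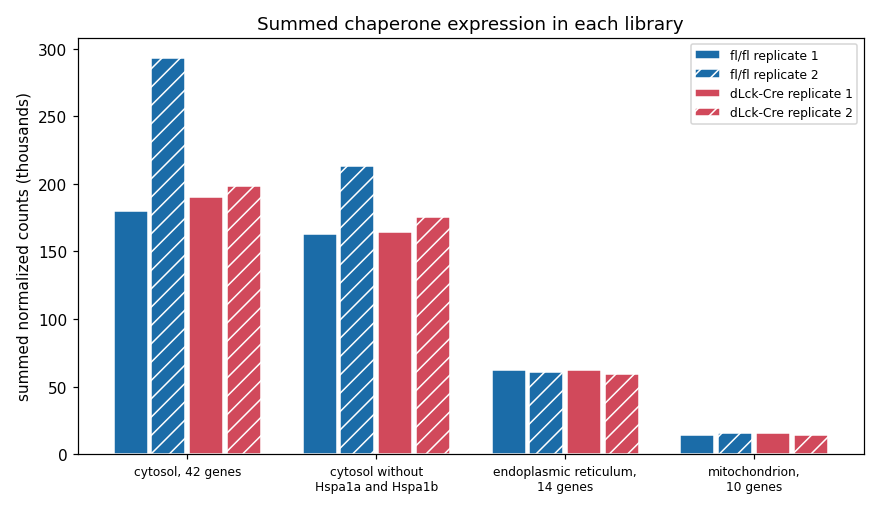
Summed normalized counts of the chaperone genes of each compartment, 1 bar for each library. The cytosolic bar of fl/fl replicate 2 reaches 293459 counts and stands above the other 3, and the 4 endoplasmic reticulum bars lie between 59324 and 62008.

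Per length of exon, the constitutive HSP70 gene was the most abundant chaperone in 3 of the 4 libraries, and Hspa1b in fl/fl replicate 2 (17631 against 14705 for Hspa8, in normalized counts per kilobase). On the scale of normalized counts per kilobase of exon (a level, over all 4 libraries), Hspa8 was at 12653, followed by Hsp90ab1 at 8353, Hspa1b at 8032, Hspa5 at 7801, Hspa1a at 4745, Hsp90aa1 at 3765 and Hsp90b1 at 3118. In the dLck-Cre-labelled libraries alone Hspa1b was at 5371 and Hspa1a at 3234 per kilobase, so their places in this order depend on fl/fl replicate 2. Of the 3 genes that rose in the dLck-Cre-labelled libraries, Hspa12a was at 12.1, Hspb1 at 32.3 and Dnajc22 at 119 normalized counts per kilobase, with 3, 12 and 21 of the 73 members below them.

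Hspb1 (chr5:135887919-135889563, plus strand), which encodes a small heat shock protein (HSP25) that holds unfolded proteins without ATP, was at 14.6 and 7.73 normalized counts in fl/fl and at 50.2 and 60.6 in the dLck-Cre-labelled libraries. Both libraries of 1 group lie above both of the other, on 14 and 7 recovered reads against 48 and 74. The log2 difference was 2.27 (SE 0.44, 95% interval 1.23 to 3.31, limma, adjusted p = 0.0328). Hspa12a (chr19:58795750-58943654, minus strand), an HSP70 relative with a divergent ATPase domain, was at 44.7 and 57.4 against 140 and 203, again without overlap (log2 difference 1.72, SE 0.30, adjusted p = 0.0262). Dnajc22 (chr15:99093170-99104737, plus strand), a membrane J-domain protein whose fly counterpart Wurst acts in clathrin-mediated endocytosis, was at 126 and 150 against 329 and 274 (log2 difference 1.12, SE 0.21, adjusted p = 0.031). After scaling to T cell identity genes their log2 differences were 2.75, 2.22 and 1.63, about the all-gene shift of 0.48 higher. None of the 3 passed after quantile normalization (adjusted p of 0.0613, 0.0567 and 0.0692) or with limma without the trend (0.115 for each), and none of the 3 passed without dLck-Cre replicate 2 (adjusted p of 0.143, 0.111 and 0.0865 for Hspb1, Hspa12a and Dnajc22), where limma called 0 of 16136 genes (2810 at an unadjusted p under 0.05). Hspb1 also did not pass without dLck-Cre replicate 1 (adjusted p = 0.0642), and Dnajc22 did not pass without dLck-Cre replicate 1 (adjusted p = 0.0708) or fl/fl replicate 1 (adjusted p = 0.0634).

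Most markers of other cells were, like these 3 genes, higher in the dLck-Cre-labelled libraries without overlap. These were 26 of 26 epithelial and 26 of 28 myeloid markers, against 27.7% of all genes. Within the dLck-Cre-labelled group, replicate 2 over replicate 1 was 1.29 for Epcam, 1.21 for Hspb1, 1.45 for Hspa12a and 0.83 for Dnajc22. Epcam, the epithelial adhesion gene, was at 3178 and 3495 normalized counts in fl/fl and at 7325 and 9441 in the dLck-Cre-labelled libraries, and the myeloid receptor gene Cd14 at 1957 and 2101 against 4427 and 5014. Cd4 was at 18035 and 18818 against 12615 and 13443, and the T cell receptor modulator gene Cd5 at 7031 and 6309 against 3821 and 2501. Of the 28 myeloid markers 27 had a log2 difference above 0, and 2, Cd14 among them, were higher in fl/fl replicate 2 than in replicate 1. The log2 differences had medians of 1.32 over the 26 epithelial markers and 1.17 over the 28 myeloid ones, against 2.27, 1.72 and 1.12 for the 3 chaperone genes. The part of these cells in the rise of Hspb1, Hspa12a and Dnajc22 was not tested.

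**Figure D5:**
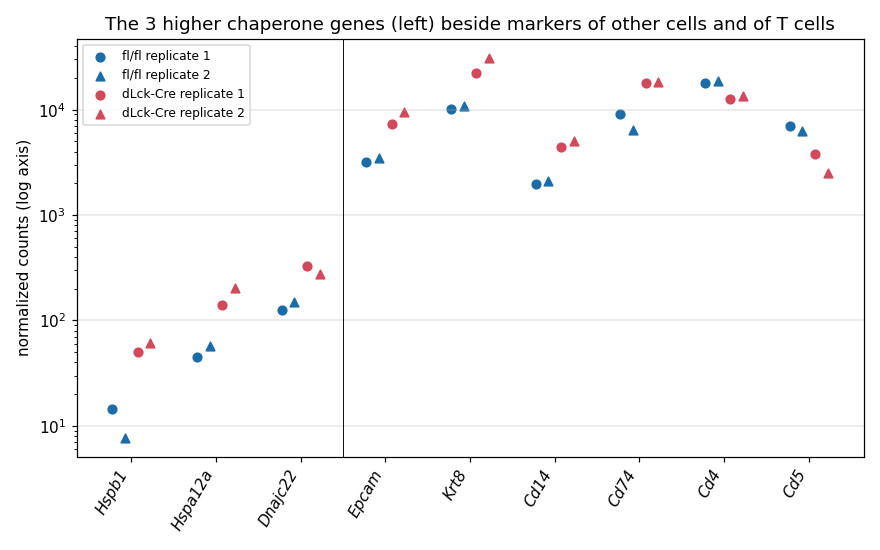
Normalized counts (log axis) in each library for Hspb1, Hspa12a and Dnajc22, left of the line, and for the epithelial markers Epcam and Krt8, the myeloid genes Cd14 and Cd74 and the T cell genes Cd4 and Cd5, right of it. The 3 chaperone genes and the 4 markers of other cells are higher in both dLck-Cre-labelled libraries than in both fl/fl libraries, and Cd4 and Cd5 are lower in both.

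The other small heat shock protein genes were at low counts. Hspb8, a partner of the cochaperone BAG3 in selective autophagy, was at 14.6 and 14.4 normalized counts against 28.2 and 30.3 (log2 difference 0.97, SE 0.41, adjusted p = 0.201), without overlap and without passing. Hspb6 was at 55.1 and 58.5 against 61.7 and 67.1, and Hspb9 at 16.6 and 8.84 against 13.6 and 6.55. Of these, Hspb8 was named after its values were seen, as were the low-count genes beside it.

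The replicates of the CCT genes lay close together, and no subunit passed the test. Cct2 was at 6824 and 6553 normalized counts in fl/fl and at 5913 and 5243 in the dLck-Cre-labelled libraries (log2 difference -0.26, SE 0.13, adjusted p = 0.272), and Cct4 at 4670 and 4691 against 4063 and 4058 (-0.20, SE 0.12, adjusted p = 0.356). Cct3 ran the other way, at 3428 and 3514 against 3632 and 3679 (log2 difference 0.08, adjusted p = 0.762). Cct5 (-0.09), Cct6a (-0.13), Cct7 (-0.10), Cct8 (-0.0057) and Tcp1 (-0.15) completed the ring, and of the 8 subunits 0 passed (limma; 0 at an unadjusted p under 0.05, and 0 by edgeR and DESeq2). Cct2, Cct4, Cct5, Cct7 and Tcp1 were lower without overlap, 5 of 8, and Cct3 higher without overlap, 1 of 8. Of all 72 tested members 22 were lower and 11 higher without overlap, and over all genes 27.4% were lower and 27.7% higher without overlap. After scaling to T cell identity genes all 8 differences were above 0, between 0.24 for Cct2 and 0.58 for Cct3, beside an all-gene median of 0.48. The prefoldin subunits, which hand actin and tubulin to the CCT ring, gave 0 of 6 past the threshold (limma; 2 at an unadjusted p under 0.05, and 0 by edgeR and DESeq2). Pfdn5 had the largest log2 difference among them (-0.47, adjusted p = 0.107), then Vbp1 (-0.39, adjusted p = 0.176), Pfdn1 (-0.19) and Pfdn4 (-0.17).

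No mitochondrial chaperone gene passed limma's test, and DESeq2 called 1, Dnajc15, as lower. Hspd1 was at 3939 and 5156 normalized counts against 5082 and 4753 (log2 difference 0.13), Hspe1 at 2277 and 2566 against 2557 and 2367 (0.03), and Hspa9 (mortalin, the HSP70 that pulls proteins into the matrix) at 3522 and 4035 against 4239 and 4240 (0.17, adjusted p = 0.487). The first 2 overlap between groups and the last does not. Dnajc15, named after its values were seen, an inner membrane J-domain protein that restrains complex I of the respiratory chain, was at 2089 and 1577 against 1364 and 787, lower in both dLck-Cre-labelled libraries (log2 difference -0.81, SE 0.26, limma, adjusted p = 0.117, DESeq2, adjusted p = 0.0358). Dnajc15 passed limma's test as lower without dLck-Cre replicate 1, at -1.20 (adjusted p = 0.018). Of 10 genes of mitochondrial folding and quality control 0 passed (limma; 1 at an unadjusted p under 0.05, and 0 by edgeR and DESeq2), with Hscb (-0.48, adjusted p = 0.199), Grpel2 (0.46, adjusted p = 0.232), Trap1 (0.29, adjusted p = 0.27) and Htra2 (0.33, adjusted p = 0.339) the lowest in p.

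Further J-domain genes had an unadjusted p under 0.05 without passing, each named after its values were seen. Dnajb6, which keeps aggregation-prone proteins soluble, was at 4836 and 5528 normalized counts against 3699 and 3640, without overlap (log2 difference -0.49, SE 0.13, limma, adjusted p = 0.0704, DESeq2, adjusted p = 0.0375). Dnajc9, a histone chaperone, was at 2344 and 1989 against 1792 and 1334 (log2 difference -0.48, SE 0.18, adjusted p = 0.155), and Dnajc11, a partner of the cristae-organising complex, at 640 and 671 against 902 and 865 (log2 difference 0.43, adjusted p = 0.12). Dnajc6, the clathrin-uncoating protein auxilin, rested on fl/fl replicate 1, at 165 and 71.8 against 62.7 and 48.3 (log2 difference -0.97, adjusted p = 0.207), and passed as lower without fl/fl replicate 2, at -1.57 (adjusted p = 0.0352).

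The choice of scale decided how the whole set sat against 0. With libraries scaled to 22 T cell identity genes in place of all genes, the median over all genes moved from -0.02 to 0.48, the calls over all genes became 4672 higher (28.3%) and 53 lower, in place of 948 and 202, and 23 of the 72 chaperone genes passed, all higher. The median was then 0.37 for the cytosolic and 0.51 for the endoplasmic reticulum members, on either side of that all-gene median. Hspa5 (0.49, adjusted p = 0.0421) and Hsp90b1 (0.53, adjusted p = 0.0315) were among the 7 endoplasmic reticulum genes called, at about the shift of all genes. On this scale Hspa1a was at -0.04 and Hsph1 at -0.10, below the shift of all genes.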

How the data were processed

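The 4 RNA sequencing libraries of sorted colonic CD4+ T cells, 2 per donor genotype, stand in 1 table. Per the submitters' processing notes the genome build was mm10. Which aligner, annotation, counter and strand setting were used is not given in the sources used here, so overlapping or near-identical genes cannot be told apart. The table's name calls the deposited signal normalized counts, and the values fit counts divided by a size factor. Whole reads were recovered for 100% of the values of each library (tolerance 1e-06), and the recovered reads summed to 18517974 and 17666457 (fl/fl) and to 16777017 and 22422971 (dLck-Cre label). No column was left unused.

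Columns were assigned by the names in the labels. Genes with a mean of at least 10 (16490 of 16555) entered the test as log2(value + 1), in limma 3.58.1 (empirical Bayes, intensity trend; R 4.3.3), Benjamini-Hochberg over all genes, threshold 0.05, so fold changes of low genes are understated. The recovered reads were also tested with edgeR 4.0.16 (quasi-likelihood test) and with DESeq2 1.42.0. Other alternatives were pseudocounts of 0.5 and 5, no filter, a mean of at least 50, TMM, quantile and T cell identity scaling, limma without trend or robust, the replicate number as a block, and leaving out each library. On simulated counts for this comparison (16226 genes) limma found 51% of the 100 genes set to a 2-fold change. It found 97% of the 100 set to 4-fold, and 0.671% of its calls in the simulation were false. These rates describe the simulated counts and were not measured on the deposited ones. Whether they hold for genes with a wide replicate spread, such as Hspa1a, or few reads, such as Hspb1, was not tested.

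Members were matched by symbol, and compartments, other gene lists and markers were written from general knowledge. Members and lists were chosen with earlier results of these data known. Named genes were the CK2 subunits, members past the threshold or with a log2 difference of at least 1, the abundant or defining members of each family, and up to 4 genes of each other list by p. Coordinates and exon lengths are from GENCODE vM21 (GRCm38), which matched all 73 members, and promoters from RefSeq (GRCm38.p6). Protein sequences were not analysed here. Figures were drawn with matplotlib 3.10.9.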

Additional observations from a re-analysis of the deposited data

How the results depend on the processing

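The count of 3 called chaperone genes was 0 after quantile normalization (12 at an unadjusted p under 0.05), 0 with limma without the trend (6 unadjusted), 23 after T cell identity scaling, 5 with DESeq2 and 6 with the replicate number as a block, and 0 to 5 when single libraries were left out. Over all 16490 genes tested the calls moved as well. In place of 1150 they were 341 after quantile normalization and 0 without the trend, where no gene of any kind passed. They were 4725 after T cell identity scaling, 1768 with DESeq2 and 2096 with the block. With the block 3 chaperone genes were higher and 3 lower, the latter Dnajb6, Dnajc9 and Dnajc15. Same-numbered libraries share only a number (correlation of their deviations 0.11). The cytosolic count of 2 was 1 at a mean of at least 50, where Hspb1 was not tested, 0 after quantile normalization, 8 after T cell identity scaling, 0 without the trend, and 0 to 5 without single libraries. The endoplasmic reticulum count of 0 was 7 after T cell identity scaling. That scaling also moved the cytosolic median to 0.37, the endoplasmic reticulum median to 0.51, and the log2 ratio of summed levels from -0.28 to 0.23 for the cytosol and from -0.02 to 0.49 for the endoplasmic reticulum. The cytosolic median lay between -0.19 and -0.0084 when single libraries were left out, and the endoplasmic reticulum median between -0.047 and 0.04. The cause of these shifts was not tested.

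T cell identity scaling placed the all-gene median at 0.48, so genes a little below 0 came to lie above it: Hspa8 (0.49), Hspa4 (0.39), Hsp90aa1 (0.29), Hsp90ab1 (0.39), Dnaja1 (0.23), Dnajb1 (0.38), Hspa5 (0.49), Hspa13 (0.44), Dnajb9 (0.45), Dnajc3 (0.33), Tcp1 (0.36), Cct2 (0.24), Cct4 (0.30), Cct5 (0.42), Cct6a (0.38), Cct7 (0.41) and Cct8 (0.50). After quantile normalization the sign changed for Hspa8 (0.20), Hspa4 (0.047), Hsp90aa1 (0.024), Hsp90ab1 (0.22), Dnajb1 (0.024), Hspa5 (0.31), Tcp1 (0.030), Cct5 (0.058), Cct6a (0.0014), Cct7 (0.069) and Cct8 (0.14). With TMM and edgeR it changed for Hspa5 (0.0044 and 0.0038) and Cct8 (0.013 in both). Leaving out single libraries gave ranges across 0 for Hspa1a (-1.68 to 0.59), Hspa1b (-1.72 to 0.51), Hsph1 (-1.38 to 0.16), Dnajb1 (-0.73 to 0.48), Hsp90aa1 (-0.56 to 0.13), Dnaja1 (-0.56 to 0.0046), Hspa8 (-0.24 to 0.20), Hsp90ab1 (-0.33 to 0.10), Hspa5 (-0.046 to 0.018), Hsp90b1 (-0.084 to 0.13), Hspa13 (-0.24 to 0.12), Dnajb9 (-0.40 to 0.30), Dnajb11 (-0.049 to 0.11), Dnajc10 (-0.072 to 0.32), Hspd1 (-0.069 to 0.32), Hspe1 (-0.061 to 0.11) and Cct8 (-0.047 to 0.035). The other pseudocounts, no filter, robust estimation and DESeq2 changed the sign of 0 of 30 named genes. Hspb1, Hspb6, Hspb8 and Hspb9, among others, rested on under 100 reads a library. The called gene Hspa12a rested on 43 and 52 reads in fl/fl against 134 and 248 in the dLck-Cre-labelled libraries.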
